A study of Arabidopsis thaliana with 4 samples.

Results

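The group VII ethylene response factors and the genes of the core low-oxygen response were examined in rosette leaves of Arabidopsis thaliana. The 10 genes were taken by locus from a table of 33059 features, and all 10 were found in it. They are the transcription factors RAP2.12, RAP2.2, RAP2.3, HRE1 and HRE2, and the response genes ADH1, PDC1, SUS4, HB1 and PCO1. RNA sequencing libraries came from wild-type plants (WT) and from plants that carry Pro35S:ERF4 (OE), in which the CaMV 35S promoter drives ERF4 in most tissues. All plants were aged 28 days, and each genotype had 2 libraries. Neither the accession of the wild type, nor the number of independent OE lines, nor any pooling of plants is stated in the labels. The labels name no low-oxygen treatment, so the values describe leaves as they were harvested.

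Group VII ERFs are the part of the plant oxygen-sensing system that acts on genes. Their proteins begin with methionine and cysteine. In air, methionine aminopeptidases expose the cysteine, plant cysteine oxidases (PCOs) oxidize it, arginyl transferases (ATEs) add arginine, and the ubiquitin ligase PRT6 marks the protein for breakdown. When oxygen falls the proteins persist and switch on genes for ethanol fermentation, sucrose use, haemoglobin and the PCOs themselves. RAP2.12, RAP2.2 and RAP2.3 are made all the time, while HRE1 and HRE2 are themselves induced by low oxygen. Much of this control acts on protein stability, which transcript levels do not show.

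Values are in TPM, a measure of transcript abundance that is corrected for transcript length and scaled to the same sum in each library. They keep no read number, so counting intervals could not be computed. ERF4 stood at 9.68 and 10.6 TPM in WT replicates 1 and 2 and at 24.5 and 28.8 TPM in OE replicates 1 and 2, in the direction of the labels (limma adjusted p = 0.381). Leaf markers (5 of 5) lay between 867 and 20976 TPM in every library. Their summed level was lower in WT replicate 2 (19919 TPM) than in WT replicate 1 (53051 TPM), with 26035 and 41436 TPM in the OE libraries. All 6 root hair and endodermis markers were also above 0 in all 4 libraries, at 6.51 to 47.65 TPM, and their sum ran from 110.2 to 133.3 TPM. The sum of 4 seed markers was 42.89 and 47.04 TPM in WT beside 0.51 and 3.77 TPM in OE. The sum of 4 flower markers was 1.19 and 4.65 TPM in WT replicates 1 and 2. It was 0.65 and 4.4 TPM in OE replicates 1 and 2, so it was higher in replicate 2 of both genotypes. Among these markers SEP3 reached 3.21 TPM, while AP3, which defines petals and stamens, did not exceed 0.19 TPM. The part of root, seed or flower transcripts in the results that follow was not tested. In bulk tissue fewer cells of a type and less RNA per cell cannot be told apart. Whether the 2 replicates of a genotype are different plants is not labelled, and the tests therefore reflect a spread that may be technical.

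None of the 10 genes passed the test of OE against WT, and for 8 of them the 2 genotypes overlapped. Of the 20010 features that averaged 1 TPM or more, 0.09% were called (limma on log2(TPM + 1), Benjamini-Hochberg adjusted p under 0.05), and 0 of the 10 were among them. At an unadjusted p under 0.05 the count was 1 of 10, beside 5.3% of all tested features. Both OE libraries lay below both WT libraries for 2 of the 10, beside 14.2% of all tested features. They lay above both for 0 of the 10, beside 13.7%, so overlap was also common among all features. Every one of the 10 passed the filter on low values. Their median log2 fold change (OE minus WT) was -0.24, beside -0.02 for all tested features, and leaving out WT replicate 2 gave 0.21, leaving out OE replicate 2 0.02. For a single gene an exact two-sided permutation test with 2 libraries per genotype cannot give a p below 0.333.

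**Figure D1:**
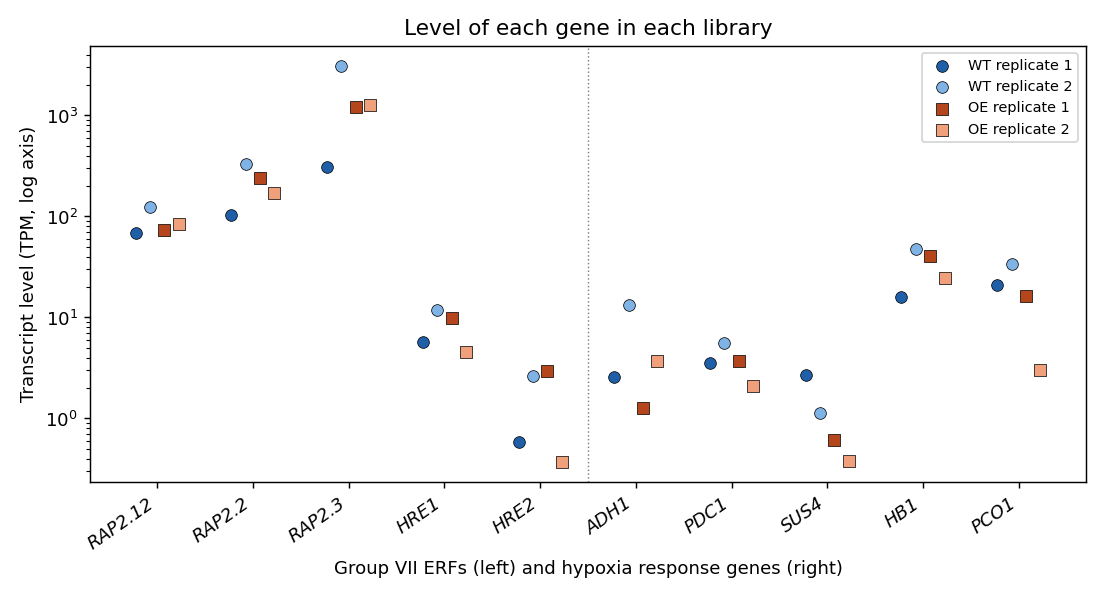
Transcript level in TPM on a log axis for each of the 10 genes, one point per library (circles WT, squares OE). RAP2.3 is the most abundant and spans 310.3 to 3109 TPM within WT, while both OE points of SUS4 and PCO1 lie under both WT points.

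The 3 constitutive factors were the most abundant of the set. RAP2.3 (AT3G16770, listed as EBP in RefSeq), an ERF first described as a protein that binds ethylene-responsive elements, had 310.3 and 3109 TPM in WT replicates 1 and 2. It had 1213 and 1267 TPM in OE replicates 1 and 2. The OE libraries thus lay between the WT libraries and differed from each other 1.04-fold, against 10.0-fold within WT. In WT replicate 2 it was the 19th most abundant of all features, in OE replicates 1 and 2 the 58th and 75th, and in WT replicate 1 the 402nd. Only 0.53% of tested features differed as much between the WT libraries on the log2(TPM + 1) scale.

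The mean level of RAP2.3 was 1709 ± 1979 TPM for WT, beside 1240 ± 38.1 TPM for OE (SD, n = 2). Its log2 fold change was 0.33 (SE 0.913, 95% interval -1.68 to 2.35, limma adjusted p = 1.0), so the mean of logs and the ratio of means, 0.725, point opposite ways. Without WT replicate 1 the log2 fold change was -1.33, and without WT replicate 2 it was 1.99. The direction for RAP2.3 therefore rests on which WT library is kept.

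RAP2.2 (AT3G14230), an activator that works with RAP2.12 in the low-oxygen response, had 104 and 333 TPM in WT beside 241 and 171 TPM in OE. Both OE libraries again lay between the WT libraries. Its log2 fold change was 0.12 (SE 0.565, 95% interval -1.12 to 1.37, limma adjusted p = 1.0), with -0.71 without WT replicate 1, 0.96 without WT replicate 2 and -0.12 without OE replicate 1.

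RAP2.12 (AT1G53910), the factor held at the plasma membrane by acyl-CoA-binding proteins in air, had the narrowest range of the group as a fold, 1.81 from the lowest to the highest library. It had 69.2 and 125 TPM in WT beside 74.0 and 84.4 TPM in OE, and the OE values lay inside the WT range. Its log2 fold change was -0.23 (SE 0.425, 95% interval -1.17 to 0.70, limma adjusted p = 1.0), with 0.19 without WT replicate 2.

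HRE1 (AT1G72360), the hypoxia-inducible factor named ERF73 in RefSeq, was low in all libraries. It stood at 5.67 and 11.8 TPM in WT beside 9.98 and 4.54 TPM in OE, and the genotypes overlapped. HRE2 (AT2G47520, ERF71), its inducible relative, had 0.58 and 2.64 TPM in WT beside 2.94 and 0.37 TPM in OE. In OE, replicate 1 was higher than replicate 2 for both, 2.20-fold for HRE1 and 7.95-fold for HRE2. The log2 fold changes were -0.24 (SE 0.463, 95% interval -1.26 to 0.78) for HRE1 and -0.05 (SE 0.618, 95% interval -1.41 to 1.32) for HRE2 (limma adjusted p = 1.0 for both). Each turned positive without WT replicate 2 (0.23 and 0.56) and without OE replicate 2 (0.25 and 0.72), and HRE2 also with quantile normalization (0.02).

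TPM can be compared between genes, so the make-up of the group was read within each library. RAP2.3 supplied 63.4% of the summed group VII transcripts in WT replicate 1, 86.8% in WT replicate 2, 78.7% in OE replicate 1 and 83.0% in OE replicate 2. RAP2.2 came next, with 9.29% to 21.2%, and RAP2.12 with 3.49% to 14.1%. HRE1 and HRE2 together made up a small remainder, at most 1.16% for HRE1 and 0.191% for HRE2. The sum of the 5 factors was 489.6 and 3581 TPM in WT beside 1540 and 1527 TPM in OE, and most of the gap between the WT libraries was RAP2.3.

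PCO1 (AT5G15120), a cysteine oxidase that is itself induced by low oxygen and feeds back on the group VII factors, had the lowest log2 fold change of the 10. It was at 20.9 and 33.8 TPM in WT beside 16.3 and 3.01 TPM in OE. Both OE libraries lay below both WT libraries, which was so for 2 of the 10 genes and for 14.2% of all tested features. No member had both OE libraries above both WT libraries, against 13.7% of features. The mean was 27.4 ± 9.13 TPM for WT and 9.66 ± 9.40 TPM for OE (SD, n = 2), a ratio of 0.353. The log2 fold change of -1.73 (SE 0.590, 95% interval -3.03 to -0.43) had an unadjusted p of 0.014 and did not pass over all features (limma adjusted p = 0.603). OE replicate 2 set its size, since the log2 fold change was -0.67 without that library and -2.78 without OE replicate 1 (limma adjusted p = 0.0224), a fit with 1 residual degree of freedom that takes the lone OE library to vary like WT. The seed marker sum, 42.89 and 47.04 TPM in WT beside 0.51 and 3.77 TPM in OE, separated the genotypes the same way. Within WT both the seed sum and PCO1 were higher in replicate 2. Within OE the seed sum was higher and PCO1 lower in replicate 2. The part of seed transcripts in the PCO1 values was not tested.

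In the rest of the oxidase family the genotypes overlapped, or OE stood above WT in the case of PCO3. PCO2, the other hypoxia-inducible oxidase, had 9.40 and 27.9 TPM in WT beside 20.3 and 4.49 TPM in OE. PCO3 had 5.31 and 4.41 TPM in WT beside 7.76 and 6.22 TPM in OE. PCO4 and PCO5, which are expressed without low oxygen, were at 13.2 and 21.9 TPM and 21.1 and 48.6 TPM in WT, and at 17.4 and 20.2 TPM and 32.5 and 35.7 TPM in OE. None of the 5 oxidases was called, beside 0.09% of all tested features. The inducible pair PCO1 and PCO2 summed to 0.764 and 0.824 times the level of PCO3, PCO4 and PCO5 in WT replicates 1 and 2. In OE replicate 1 that ratio was 0.634, and in OE replicate 2 it was 0.121. OE replicate 2 thus stood apart from the other 3 libraries in the balance of the family.

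**Figure D2:**
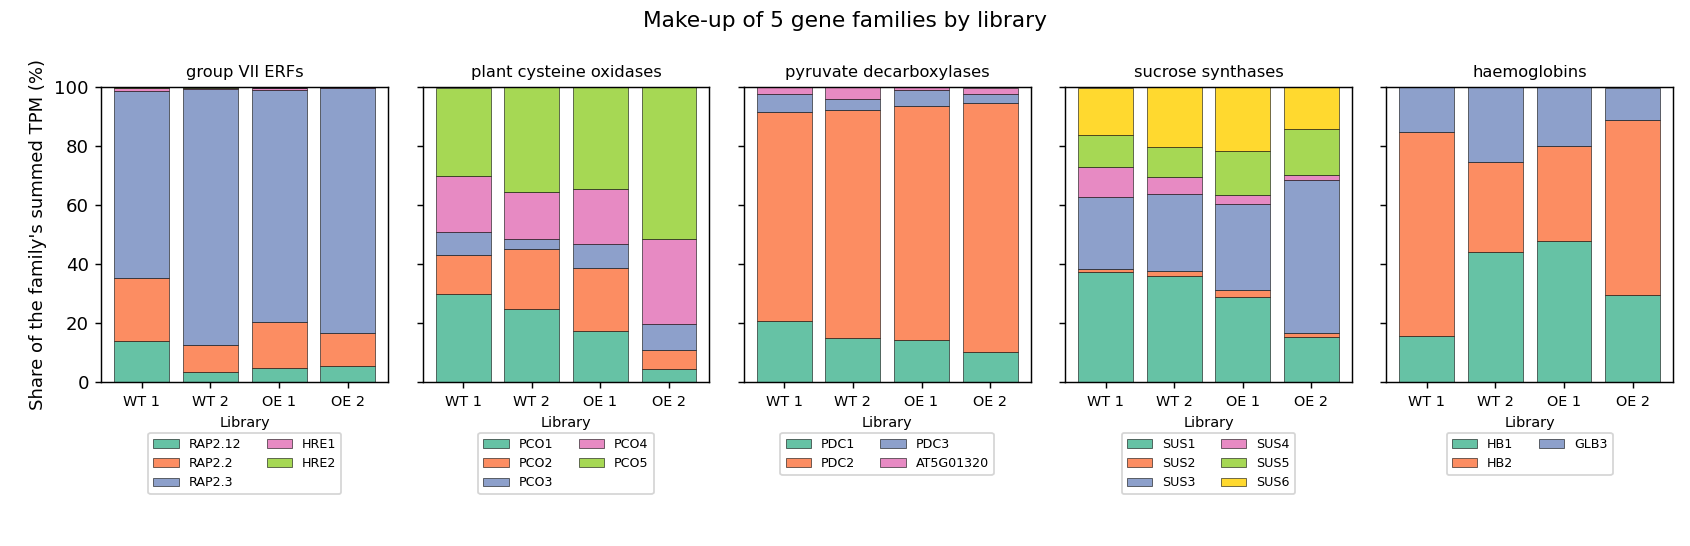
Share of each family's summed TPM held by each gene, in percent, for the group VII ERFs, plant cysteine oxidases, pyruvate decarboxylases, sucrose synthases and haemoglobins, one bar per library. RAP2.3 holds 63.4% to 86.8% of the group VII sum, and PCO1 holds 29.9% of the oxidase sum in WT replicate 1 and 4.32% in OE replicate 2.

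Ethanol fermentation uses pyruvate decarboxylase to make acetaldehyde and alcohol dehydrogenase to reduce it to ethanol. ADH1 (AT1G77120), the alcohol dehydrogenase and a standard marker of low oxygen, had 2.60 and 13.2 TPM in WT beside 1.27 and 3.74 TPM in OE. The genotypes overlapped, because WT replicate 1 lay between the OE libraries. The means were 7.88 ± 7.47 and 2.50 ± 1.75 TPM (SD, n = 2), with a log2 fold change of -1.12 (SE 0.621, 95% interval -2.49 to 0.25, limma adjusted p = 1.0). Leaving out WT replicate 2 gave -0.13, and leaving out WT replicate 1 gave -2.11. ADH1 is known to be abundant in seeds. The seed marker sum was 42.89 and 47.04 TPM in WT replicates 1 and 2 and 0.51 and 3.77 TPM in OE replicates 1 and 2. That sum separated the genotypes, whereas ADH1 did not, and its part in the ADH1 values was not tested.

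PDC1 (AT4G33070), the decarboxylase most strongly induced by low oxygen, had 3.52 and 5.57 TPM in WT beside 3.70 and 2.11 TPM in OE. These values overlapped, with a log2 fold change of -0.51 (SE 0.429, 95% interval -1.46 to 0.44, limma adjusted p = 1.0). In leaves PDC2 was the main form of this enzyme, at 11.9 and 28.9 TPM in WT beside 20.5 and 17.4 TPM in OE. PDC1 made up 20.9% and 14.9% of the pyruvate decarboxylase transcripts in WT and 14.4% and 10.2% in OE, and PDC2 70.9% to 84.5%. The 4 genes are related in sequence, and TPM does not show how any shared reads were divided among them. The fermentation list adds the lactate or malate dehydrogenase family gene AT4G17260 and the alanine aminotransferases ALAAT1 and ALAAT2. Of its 7 tested genes 0 were called, beside 0.09% of all tested features. AT5G01320, a further decarboxylase, was below the filter with at most 1.5 TPM.

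SUS4 (AT3G43190), a sucrose synthase that splits sucrose for glycolysis, was the least abundant of the 10 by mean. It had 2.71 and 1.13 TPM in WT beside 0.61 and 0.38 TPM in OE, with no overlap. The log2 fold change was -0.92 (SE 0.504, 95% interval -2.03 to 0.20, limma adjusted p = 1.0), and it ran from -0.32 with a pseudocount of 5 to -1.67 with one of 0.1. SUS1, its closest relative and also a low-oxygen gene, had 9.89 and 7.43 TPM in WT beside 5.98 and 3.62 TPM in OE, likewise without overlap and not called. How reads common to these close relatives were divided is not shown by TPM, so their separate values may be less certain. SUS3 went the other way in 1 library, with 12.1 TPM in OE replicate 2 beside 5.40 to 6.47 TPM in the other 3. The summed level of the 6 sucrose synthases stayed between 20.61 and 26.48 TPM in all 4 libraries, of which SUS4 held 10.2% and 5.48% in WT and 2.96% and 1.62% in OE.

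HB1 (AT2G16060), a class 1 haemoglobin that scavenges nitric oxide under low oxygen, had 16.0 and 48.0 TPM in WT beside 40.2 and 24.5 TPM in OE. Both OE values lay inside the WT range, and the means, 32.0 ± 22.6 and 32.4 ± 11.1 TPM (SD, n = 2), nearly coincided. The log2 fold change was 0.17 (SE 0.505, 95% interval -0.95 to 1.28, limma adjusted p = 1.0), with -0.59 without WT replicate 1 and -0.18 without OE replicate 1. HB2, the class 2 form, had 70.5 and 33.3 TPM in WT beside 27.0 and 49.1 TPM in OE, high where HB1 was low in each genotype. HB1 thus held 15.7% of the haemoglobin transcripts in WT replicate 1 but 44.1% in WT replicate 2, and 47.9% in OE replicate 1 but 29.6% in OE replicate 2. GLB3, a truncated haemoglobin, had 9.11 to 27.5 TPM, and 0 of the 3 genes were called, beside 0.09% of all tested features.

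**Figure D3:**
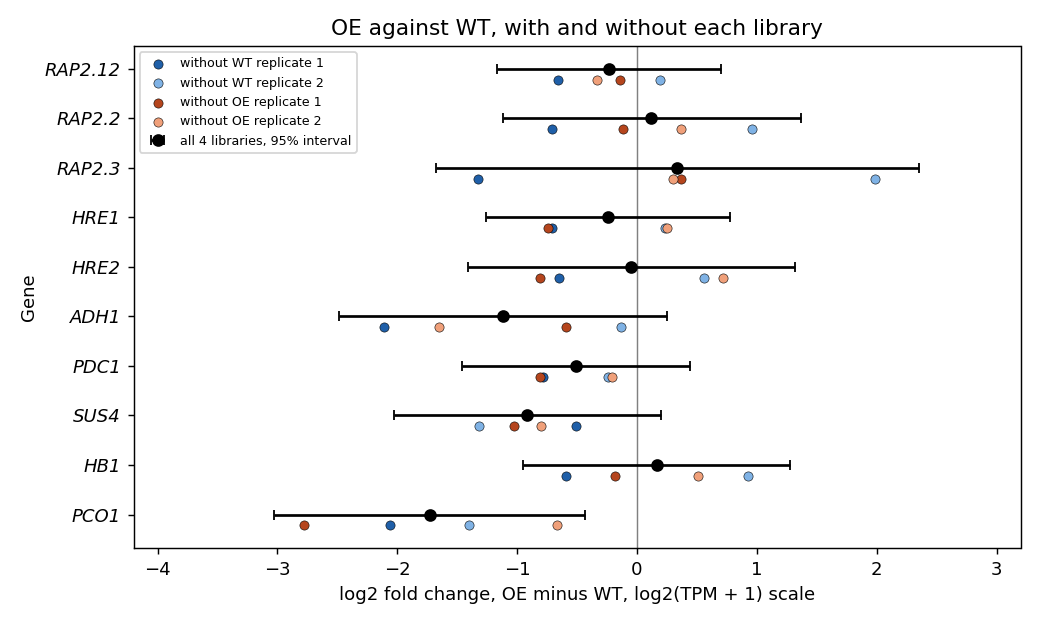
Log2 fold change of OE against WT on the log2(TPM + 1) scale for each of the 10 genes (black points, bars are 95% intervals from limma), with the value after leaving out each library in turn (coloured points). The points of RAP2.3 run from -1.33 to 1.99, and the interval of PCO1 is the only one of the 10 that does not include 0.

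Ordered by mean level over the 4 libraries, the set ran RAP2.3 (1470 TPM), RAP2.2 (212), RAP2.12 (88.1), HB1 (32.2), PCO1 (18.5), HRE1 (7.99), ADH1 (5.19), PDC1 (3.72), HRE2 (1.63) and SUS4 (1.21). The ranges of neighbours overlapped throughout, except between RAP2.12, at 69.2 TPM or more, and HB1, at 48.0 TPM or less. The constitutive factors therefore stood above the induced factors and the response genes in every library.

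Libraries of the same genotype also differed in these genes. WT replicate 2 was above WT replicate 1 for 9 of the 10 genes, SUS4 being the exception, beside 71.3% of all tested features. The median difference on the log2(TPM + 1) scale was 1.07 for the 10 genes and 0.33 for all features. The same direction was seen in 45 of the 55 tested genes of the wider low-oxygen lists (median 0.70), so it was not particular to the 10. WT replicate 2 was the highest of the 4 libraries for 8 of the 10, beside 42.8% of features. OE replicate 1 was above OE replicate 2 for 7 of the 10, beside 62.7% of features, a share close to the background. Besides HRE1, HRE2 and PCO1, the inducible genes PCO2 (4.52-fold) and HRA1 (4.54-fold), a trihelix repressor of RAP2.12, were higher in OE replicate 1. Both were chosen after their values were seen. Other low-oxygen genes went the opposite way, among them ADH1 (2.94-fold) and AT1G33055 (9.16-fold). Of the 55 tested genes of the wider lists, 34 were higher in OE replicate 1, beside 62.7% of features, so the direction was not shared by low-oxygen genes as a set. Of all tested features, 1.42% differed between the OE libraries as much as PCO1, 3.36% as much as HRE2 and 9.07% as much as HRE1. Leaf marker transcripts moved the other way in WT, where their median log2 difference (replicate 2 minus replicate 1) was -1.33, and their part in this spread was not tested.

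**Figure D4:**
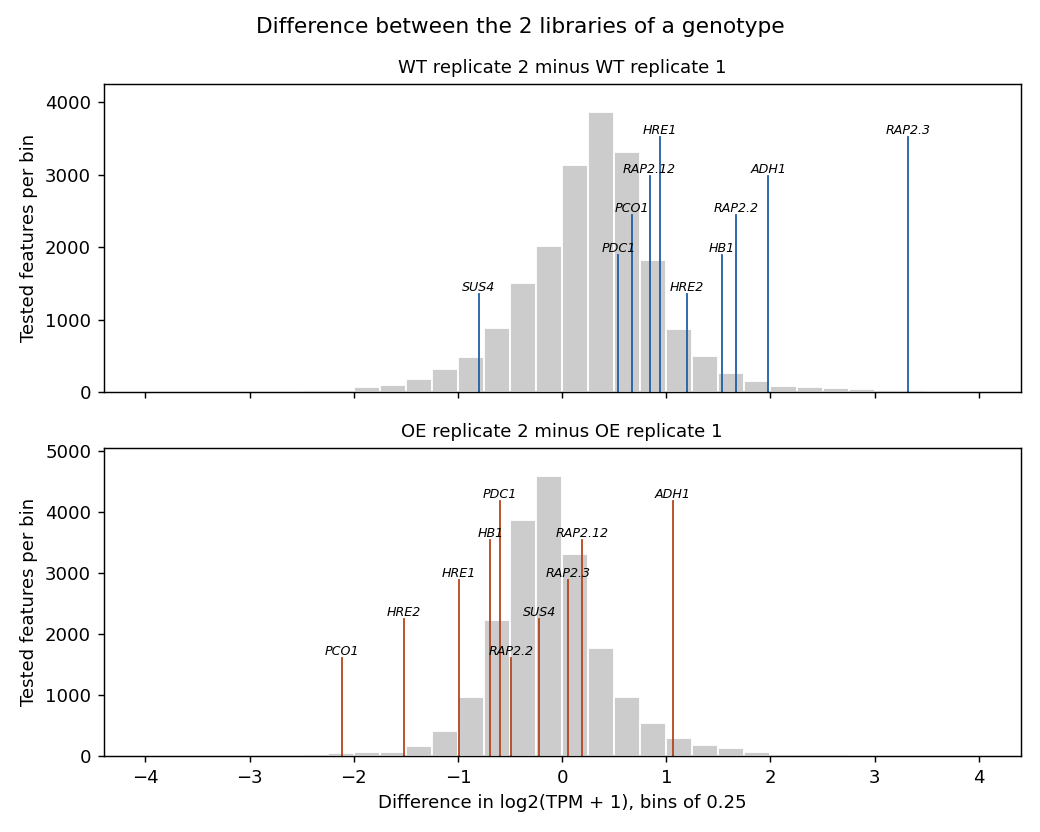
Difference in log2(TPM + 1) between the 2 libraries of WT (upper panel) and of OE (lower panel), replicate 2 minus replicate 1. Grey bars count all tested features per bin of 0.25 and coloured lines mark the 10 genes. In WT 9 of the 10 lie to the right of 0, RAP2.3 farthest at 3.32, and in OE PCO1 lies farthest to the left at -2.11.

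RAP2.3 had the widest range of the 10, and the features with the most similar profile over the 4 libraries were listed by Euclidean distance between centred log2(TPM + 1) values, among 7138 features with a symbol and a mean of at least 5 TPM. The nearest were GSTF6, a glutathione transferase (distance 0.269), FAR1, a fatty acyl reductase (0.473), STR18, a sulfurtransferase (0.493), OASA2, of the O-acetylserine lyase family (0.498), and SQE6, a squalene epoxidase (0.542). GSTF6 had 21.7 and 264 TPM in WT beside 114 and 101.3 TPM in OE. With 4 libraries this likeness mostly restates that WT replicate 1 was low and WT replicate 2 high.

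The genes of the machinery that acts on group VII proteins gave no call. Of the 7 tested genes of the N-degron route, 0 were called, beside 0.09% of all tested features. Their log2 fold changes lay between -0.25 and 0.22 with a median of 0.04. ATE1, an arginyl transferase, had 15.1 and 29.8 TPM in WT beside 24.1 and 24.0 TPM in OE. PRT6, the ligase that recognizes the arginylated factors, had 10.3 and 14.8 TPM in WT beside 15.4 and 13.8 TPM in OE. All 7 were higher in WT replicate 2 than in WT replicate 1, as were 71.3% of all tested features. Among the partners of RAP2.12, ACBP2, an acyl-CoA-binding protein that anchors it, had 10.5 and 18.8 TPM in WT beside 14.98 and 13.4 TPM in OE. ACBP1 had 8.57 TPM in OE replicate 1 and 3.95 to 4.10 TPM in the others. HRA1 had 5.43 and 10.6 TPM in WT beside 16.8 and 3.70 TPM in OE. Of these 3 partners 0 were called, beside the same 0.09% of all tested features.

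In the wider low-oxygen response, 60 listed genes besides the 10 were read from the same fit, of which 55 were tested. One gene, PHI-1, was called higher in OE and 0 lower, beside 0.06% of all features called higher and 0.03% lower. At an unadjusted p under 0.05 there were 11 of 55, of which 6 were higher and 5 lower in OE, beside 5.3% of all features. The median log2 fold change was 0.05, beside -0.02 for all features, and both OE libraries lay below both WT libraries for 7 of the 55 and above them for 9. These 2 counts, 7 and 9 of the 55, are near the shares over all features, 14.2% below and 13.7% above. The 11 of 55 at an unadjusted p under 0.05 stand above the 5.3% of all features. The lists were chosen with earlier results of these data known, and this excess was not tested.

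PHI-1 (AT1G35140), an EXORDIUM family protein listed here among the low-oxygen genes, rose from 7.17 and 4.90 TPM in WT to 71.0 and 104 TPM in OE, and the means had a ratio of 14.5. Its log2 fold change was 3.65 (SE 0.382, limma adjusted p = 0.00572). The call was lost with no filter, quantile normalization or median-ratio scaling and on leaving out WT replicate 1 (3.88, limma adjusted p = 0.361) or WT replicate 2 (3.41, 0.276), while the log2 fold change stayed between 3.05 and 3.92 in the 15 fits.

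The remaining genes named by rule had small unadjusted p-values and did not pass. Among those higher in OE, ACHT5, an atypical chloroplast thioredoxin, had 21.3 and 12.4 TPM in WT beside 37.2 and 36.3 TPM in OE (limma adjusted p = 0.599). AT4G39675 had 1.79 and 5.54 TPM in WT beside 9.62 and 19.3 TPM in OE (0.398), and AT5G65207 6.54 and 12.7 against 15.03 and 41.1 TPM (0.689). AT1G19530 had 0.89 TPM in WT replicate 1 and 39.3, 39.0 and 67.9 TPM in WT replicate 2 and the OE libraries. Its log2 fold change of 2.59 (limma adjusted p = 0.788) was 0.38 without WT replicate 1.

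Among those lower in OE, LBD41, a LOB-domain transcription factor induced by low oxygen, had 18.5 and 20.7 TPM in WT beside 12.4 and 5.78 TPM in OE (limma adjusted p = 0.701). AT5G66985 had 24.3 and 31.2 against 14.4 and 9.89 TPM (0.552). AT3G03270, of a family of adenine nucleotide hydrolase-like proteins, had 17.3 and 28.7 against 15.2 and 7.51 TPM (0.897). AT4G17670, a DUF581 family protein, had 4.15 and 3.0 against 1.31 and 1.29 TPM (0.899).

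**Figure D5:**
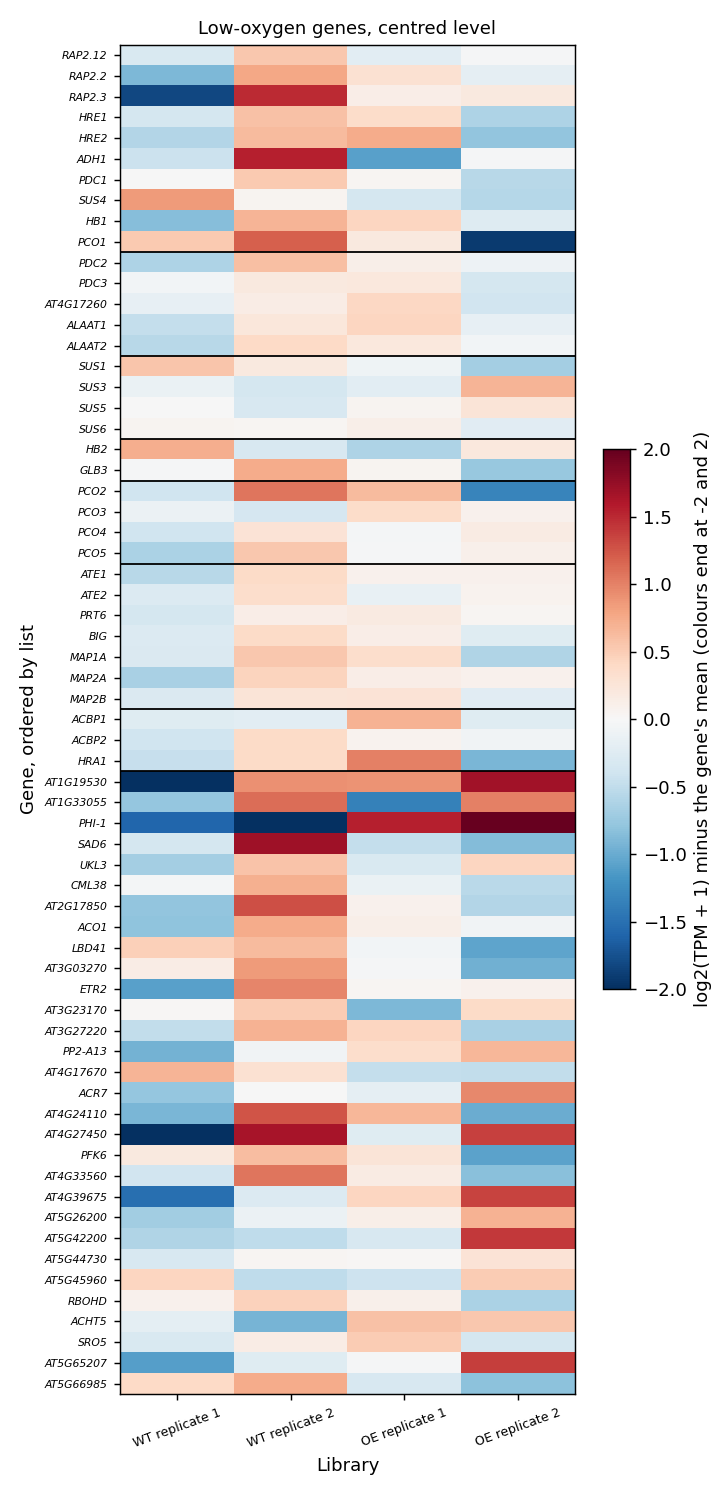
Centred log2(TPM + 1) of the 10 genes (top block) and of the 55 tested genes of the wider low-oxygen lists, one column per library, with blocks by list and red above the gene's own mean. WT replicate 2 is red for most of the 10, PHI-1 is blue in both WT libraries and red in both OE libraries, and PCO1 and PCO2 are at their darkest blue in OE replicate 2.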

How the data were processed

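TPM values were read from the single table that the authors deposited. The tools fastp, HISAT and RSEM are listed in the submitters' processing notes, with neither version nor role. The build behind the table is not given in the sources used here, so no coordinates or sequences are printed. Columns were tied to samples by their description labels, so WT replicate 2 (its title) is the column WT_3, and 2 columns of the authors' means entered no test. All 10 gene names are symbols or synonyms in the RefSeq gene table (TAIR10.1).

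The 20010 features that averaged 1 TPM or more were fitted with limma 3.58.1 in R 4.3.3 on log2(TPM + 1), which understates changes of low genes. Genotype was the only term, with a variance trend, two-sided tests and Benjamini-Hochberg adjustment over all features at 0.05. There were 2 residual degrees of freedom, to which the prior contributed 8.73 more. The test was checked on simulated data. Figures were drawn with Python 3.11.15 and matplotlib 3.10.9.

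All 10 genes were named, with up to 4 per direction by p among the other low-oxygen genes, besides called ones. The 10 genes and the lists, written from general knowledge, were chosen with earlier results of these data known. Alternatives were other pseudocounts, filters, scalings and variance priors, removal of organelle features, a replicate block and leaving out each library.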

Additional observations from a re-analysis of the deposited data

How the results depend on the processing

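The count of called members was 0 in all fits except 2: it was 1 (PCO1) with the replicate number as a block (limma adjusted p = 0.0176) and 1 (PCO1) without OE replicate 1, a range of 0 to 1 over the fits that left out 1 library. The adjusted p of PCO1 ran from 0.0176 to 1.0 over all fits. The wider list had 1 call, 0 with no filter, quantile normalization or median-ratio scaling, 3 with the block, and 0 to 1 when 1 library was left out. Over all features there were 18 calls. There were 0 with no filter, quantile normalization or median-ratio scaling, 63 at a mean of at least 5 TPM, 108 with a robust prior, 338 with the block, and 0 to 147 when 1 library was left out. At an unadjusted p under 0.05 the fits with 0 calls had 1072, 1114 and 1137 features, and those without WT replicate 1 or 2 had 1088 and 1707. The replicate numbers are shared by title only. Deviations of same-numbered libraries from their genotype means correlated at 0.0325 across 20010 features. That value shows little deviation in common, but it cannot decide whether same-numbered libraries were paired. The median of the members ran from -0.71 to 0.21 when 1 library was left out and from -0.28 to -0.19 in the other fits.

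Signs turned when 1 library was left out for RAP2.12 (-0.66 to 0.19), RAP2.2 (-0.71 to 0.96), RAP2.3 (-1.33 to 1.99), HRE1 (-0.74 to 0.25), HRE2 (-0.81 to 0.72) and HB1 (-0.59 to 0.93). HRE2 also turned with a pseudocount of 5 (0.0) and with quantile normalization (0.02). ADH1, PDC1, SUS4 and PCO1 kept a negative sign in every fit that tested them. Leaving out a library moved the median of all features to between -0.16 and 0.14, and no scaling moved it by more than 0.01. The cause of these changes was not tested. HRE2, PDC1 and SUS4 were below the stricter filter. With TPM the depth of each library is unknown, which limits the genes near 1 TPM most.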
